A study of Mus musculus with 9 samples.

Results

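J-domain co-chaperones and chaperonins were read across 9 mouse arrays as 56 genes with 138 probe sets, of 18193 genes and 45037 probe sets on the array that were kept. A probe set is a group of short probes that reads 1 transcript. The genes were chosen by name: every symbol of the form Dnaja, Dnajb or Dnajc with a number, every Cct subunit with Tcp1, the mitochondrial chaperonin pair Hspd1 and Hspe1, the cytosolic chaperone Hsp90aa1, and its partners Chordc1 and Stip1. These last 3 carry no J domain and are not chaperonins. Hsp90ab1 was not analysed here, since no probe set is annotated to that symbol, and the 3 probe sets of Dnajc19 were left out because their annotation also names a pseudogene. Of the 56 genes, 20 had 1 probe set and 36 had 2 or more, up to 7.

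Chaperones keep other proteins folded, a task that weighs on motor neurons because of their size and long axons. J-domain proteins bind unfolded clients and hand them to HSP70 chaperones, whose ATP use the J domain switches on, and each J protein directs HSP70 to a place or task. Chaperonins are closed barrels in which a protein folds in isolation: CCT, built of a ring of different subunits, folds actin and tubulin in the cytosol, and Hspd1 with its lid Hspe1 serves the mitochondrial matrix. HSP90 acts late in folding and is loaded with clients by co-chaperones.

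The groups were motor neurons of SOD1-mutant mice, motor neurons of wild-type mice, both lifted from tissue by laser capture microdissection, and whole spinal cord of wild-type mice, with 3 arrays each. SOD1 encodes a superoxide dismutase, and its mutations underlie some inherited amyotrophic lateral sclerosis. The labels do not give the mutation, the strain, the promoter of any transgene, how motor neurons were recognised or whether arrays share an animal, and a code in the titles is unexplained. The tissue field of every sample reads ventral spinal cord, although the cord samples are described as whole cord. Each p-value rests on the spread among the arrays of a group, part of which may be technical.

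Values are signal intensities scaled by the authors to 1 trimmed mean for all arrays, and a change is a difference of log2 values after a small constant was added, positive when higher in the group named first. Motor neuron markers set the captured cells apart from cord: 8 of them summed to between 163011 and 168524 in SOD1-mutant motor neurons, between 180785 and 196087 in wild-type motor neurons, and between 13988 and 21535 in cord. All tested markers of oligodendrocytes (8), astrocytes (8), microglia (9), vessels (8) and other neurons (8) fell in wild-type motor neurons against cord, but glial signal was not absent. Oligodendrocyte markers summed to between 319325 and 345692 in SOD1-mutant motor neurons, 280283 and 298647 in wild-type motor neurons, and 629288 and 744529 in cord. Astrocyte markers summed to between 114232 and 121317 in SOD1-mutant motor neurons, 83572 and 96855 in wild-type motor neurons, and 343973 and 387981 in cord. Captured arrays also carried less signal from the 5′ part of a control transcript. For the Gapdh control, signal at the 3′ end exceeded that at the 5′ end by a log2 ratio of 4.49 ± 0.15 in SOD1-mutant motor neurons, 4.03 ± 0.44 in wild-type motor neurons and -0.28 ± 0.01 in cord (SD, n = 3 each). Of the 138 probe sets, each SOD1-mutant motor neuron array had between 107 and 115 above background, each wild-type motor neuron array between 114 and 119, and each cord array between 120 and 123, with background taken from bacterial control probe sets. That background was 157 to 244 on SOD1-mutant motor neuron arrays, 131 to 147 on wild-type motor neuron arrays and 135 to 173 on cord arrays. Its part in these counts was not tested.

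On the brightest probe set of each gene, wild-type motor neurons differed from whole cord in most members, and chiefly upward. On the dimmest tested one, 17 members were higher and 19 lower, beside 20.3% and 44.5% of all genes. Of the 51 genes bright enough to test, 30 rose, 9 fell and 12 did not pass an adjusted p of 0.05 (limma, the brightest probe set of each gene), while 31.5% of all 12916 genes tested rose and 38% fell. The 7 CCT subunits that passed rose by 1.74-fold to 3.11-fold, Hspd1 by 2.9-fold, the heat-inducible J protein Dnajb1 by 3.13-fold and the HSP90 partner Chordc1 by 4.46-fold. Dnajc27, which joins a J domain to a small GTPase, fell 4.14-fold. Of the 8 motor neuron markers 7 rose, while Chat did not pass (log2 change 0.61, adjusted p = 0.0799). Glial markers fell over the same arrays, and the part of both kinds of marker in these changes was not tested. In bulk RNA such a difference cannot be split into more or fewer cells of a type and more or less RNA per cell.

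**Figure D1:**
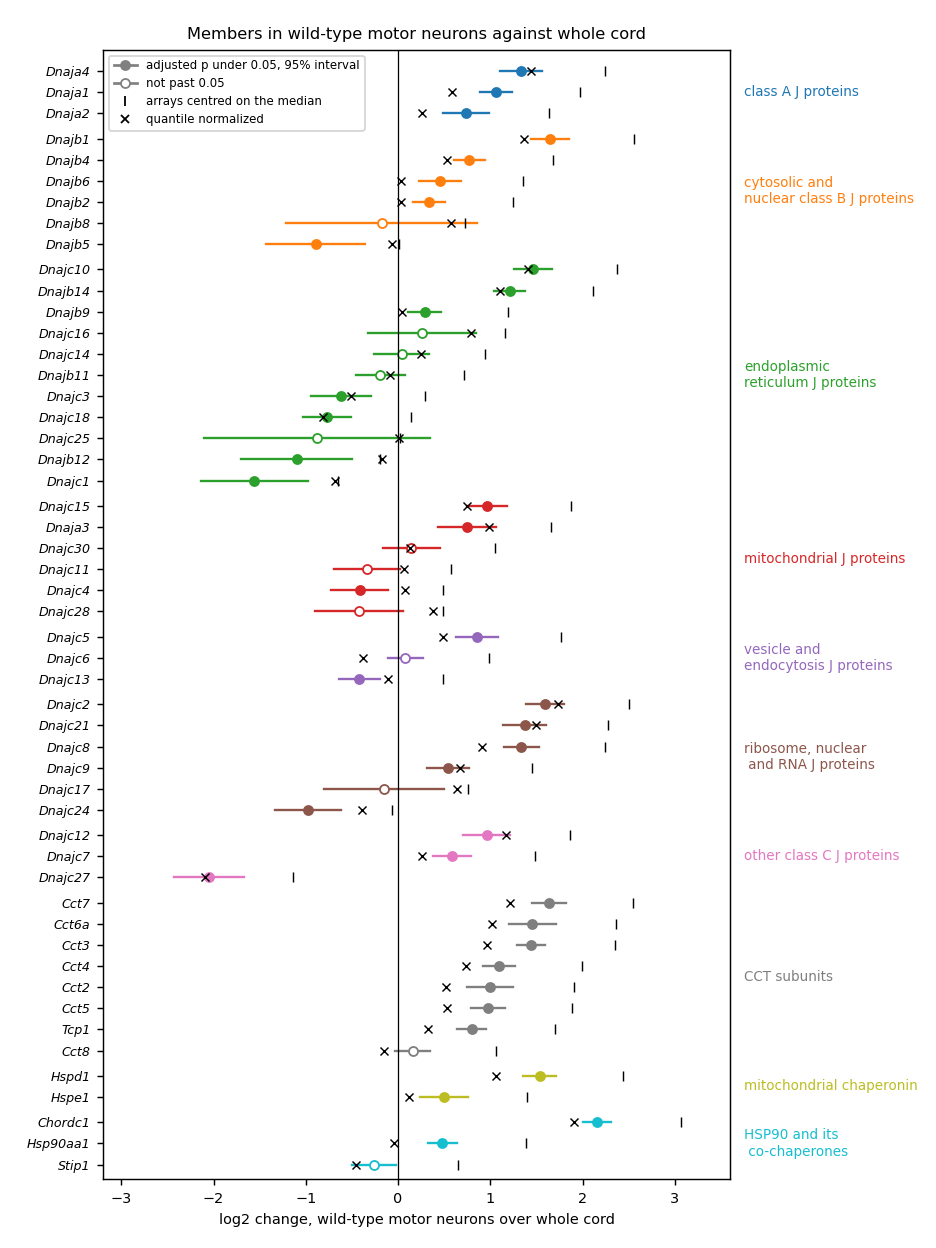
Log2 change of each tested member in wild-type motor neurons over whole cord, with its 95% interval, grouped by role. Filled circles passed an adjusted p of 0.05, ticks show the change after centring arrays on their median and crosses after quantile normalization. CCT subunits lie to the right of 0, save that the open circle of Cct8 has an interval that reaches 0, its cross lies left of 0 and its tick right of 0, and Dnajc27 and Dnajc1 stay to the left of 0 under each scaling.

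The scaling bears on these counts, because it moved the median change of all genes, which was -0.12 as scaled by the authors, 0.79 once arrays were centred on their medians, and 0.23 with quantile normalization. The members' median lay above that of all genes by 0.61 under the first pair and by 0.15 under the last. Members higher and lower numbered 41 and 2 after centring, beside 57.5% and 17.0% of all genes, and 25 and 6 after quantile normalization, beside 42.1% and 27.8%. Under all 3 scalings alike, 24 members were called higher and 2 lower, against 29.1% and 16.9% of all genes. Within single arrays, the members' median log2 signal exceeded that of all tested genes by 2.77 to 2.90 in wild-type motor neurons and by 1.92 to 2.0 in cord. Scaling by a constant does not alter this measure, but the spread of signal within an array does. At the same trimmed mean, the median signal was 269 to 313 on wild-type motor neuron arrays and 556 to 582 on cord arrays. The part of that spread in the excess was not tested. Leaving out any 1 array left 30 members higher and 8 to 11 lower.

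All 3 class A J proteins of the cytosol, the general partners of HSP70 there, rose on their brightest probe sets, beside 31.5% of all genes. Dnaja2 and Dnaja4 each also had 1 probe set called lower. Dnaja3, whose symbol also places it in class A, is counted with the mitochondrial J proteins. Dnaja1 had signals of 91345, 86969 and 98835 in SOD1-mutant motor neurons, 89866, 79523 and 86159 in wild-type motor neurons and 40774, 42909 and 38587 in cord. The captured groups overlapped, and both lay above every cord array. Dnaja1 rose 2.09-fold (log2 change 1.06 ± 0.075, SE, adjusted p = 5.02e-06), and its other 2 probe sets also rose, with log2 changes of 0.43 and 1.55. Dnaja4 rose 2.53-fold (log2 change 1.34 ± 0.10, SE, adjusted p = 6.76e-06) on signals of 11587, 13873 and 11827 in wild-type motor neurons and 4743, 4890.1 and 5046 in cord. Dnaja2 rose 1.66-fold (log2 change 0.73 ± 0.11, SE, adjusted p = 3.86e-04) but missed the threshold after quantile normalization (log2 change 0.26, adjusted p = 0.0753).

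Among class B J proteins of the cytosol and nucleus, 4 of 6 tested rose (66.7%) and 1 fell (16.7%) on their brightest probe sets, beside 31.5% and 38% of all genes. Dnajb1, the J protein that heat shock induces most strongly in many cells, had signals of 35870.0, 50855 and 45589 in SOD1-mutant motor neurons, 39488, 45294 and 40684 in wild-type motor neurons and 14102, 12087 and 13832 in cord. The 2 captured groups overlapped and both stood clear of cord. Dnajb1 rose 3.13-fold (log2 change 1.65 ± 0.091, SE, adjusted p = 1.38e-06), although its dimmer probe set read a log2 change of 0.044 (adjusted p = 0.716). Dnajb4, a close relative of Dnajb1, rose 1.71-fold on its brightest probe set (log2 change 0.77 ± 0.074, SE, adjusted p = 2.85e-05). A dimmer Dnajb4 probe set was called lower, with a log2 change of -1.06. Dnajb2 had signals of 20265, 17528 and 19250.2 in SOD1-mutant motor neurons, 21209, 22685 and 20534 in wild-type motor neurons and 17558, 17230.0 and 16276 in cord, with 1 SOD1-mutant array inside the cord range and all wild-type motor neuron arrays above it. Dnajb2, a neuronal J protein with ubiquitin-binding motifs whose human gene is mutated in an inherited motor neuropathy, rose 1.26-fold (log2 change 0.33 ± 0.077, SE, adjusted p = 0.00438), and Dnajb6, which restrains polyglutamine aggregation, rose 1.37-fold (log2 change 0.45 ± 0.10, SE, adjusted p = 0.00368). Neither of these small rises passed after quantile normalization, with log2 changes of 0.031 and 0.029. Dnajb6 rose on its brightest probe set only, and 2 dimmer ones were called lower, the steepest with a log2 change of -2.62. Dnajb5 fell 1.86-fold (log2 change -0.89 ± 0.23, SE, adjusted p = 0.00847), a direction that turned to 0.014 after centring. Its other 2 probe sets were at or below background in every wild-type motor neuron array and at least 4.76-fold and 7.56-fold lower there than in cord. Dnajb8, a dim gene, did not pass (log2 change -0.18, adjusted p = 0.741).

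Of the 11 J proteins of the endoplasmic reticulum, 3 were higher (27.3%) and 4 lower (36.4%), shares close to the 31.5% and 38% of all genes. Under all 3 scalings 2 were higher and 1 lower. Dnajc10, a disulfide reductase that prepares misfolded proteins for export from that compartment, had signals of 24378, 30839 and 26141 in SOD1-mutant motor neurons, 19244, 21244 and 18294 in wild-type motor neurons and 7104, 7362 and 6797 in cord. No array of 1 group fell among those of another. Dnajc10 rose 2.76-fold in wild-type motor neurons (log2 change 1.46 ± 0.088, SE, adjusted p = 2.12e-06). Dnajb14, a membrane J protein, rose 2.31-fold (log2 change 1.21 ± 0.073, SE, adjusted p = 2.08e-06) on signals of 19405, 19616 and 19267 in wild-type motor neurons and 8461, 8459 and 8237 in cord, and its second probe set rose 4.28-fold. Dnajb9, a stress-induced J protein, rose 1.22-fold (log2 change 0.29 ± 0.078, SE, adjusted p = 0.0102), but read 0.043 after quantile normalization (adjusted p = 0.648).

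On the lower side, Dnajc1, which binds ribosomes at the membrane of the endoplasmic reticulum, had signals of 1167, 326 and 951 in SOD1-mutant motor neurons, 475, 812 and 459 in wild-type motor neurons and 1877, 1597 and 1630.4 in cord. Captured arrays were scattered and all lay below cord. Dnajc1 fell 2.95-fold (log2 change -1.56 ± 0.25, SE, adjusted p = 6.52e-04), and fell under each of the 3 scalings. Dnajb12 had signals of 627, 711 and 729.7 in SOD1-mutant motor neurons, 418, 553 and 718 in wild-type motor neurons and 1359, 1305 and 980.1 in cord, all captured arrays being below cord. Dnajb12, which resembles Dnajb14 in sequence, fell 2.14-fold (log2 change -1.10 ± 0.26, SE, adjusted p = 0.00537) and its second probe set fell 3.94-fold, so this pair of related proteins moved in opposite directions on every tested probe set. Under the other scalings the brightest Dnajb12 probe set did not pass (log2 change -0.19 after centring and -0.18 after quantile normalization). Dnajc18, a membrane J protein, fell 1.71-fold (log2 change -0.77 ± 0.12, SE, adjusted p = 4.08e-04) and Dnajc3, a luminal inhibitor of stress-activated eIF2-alpha kinases, fell 1.53-fold (log2 change -0.61 ± 0.14, SE, adjusted p = 0.00465), both turning to small positive values of 0.14 and 0.29 after centring. The other 4 did not pass, with log2 changes in brackets: Dnajc14 (0.037), Dnajc16 (0.26), Dnajb11 (-0.19) and Dnajc25 (-0.88).

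Of the 6 mitochondrial J proteins 2 were higher (33.3%) and 1 lower (16.7%), beside 31.5% and 38% of all genes. The share higher was thus close to that of all genes. Under all 3 scalings 2 were higher and 0 lower, beside 29.1% and 16.9% of all genes. Dnajc15, an inner-membrane protein of the import motor and respiratory chain, had signals of 21109.6, 26437 and 22595 in wild-type motor neurons and 11641, 12097 and 11994 in cord and rose 1.95-fold (log2 change 0.97 ± 0.096, SE, adjusted p = 3.55e-05). Dnaja3, the matrix J protein that works with mitochondrial HSP70, rose 1.68-fold (log2 change 0.75 ± 0.14, SE, adjusted p = 0.00132) on its brightest probe set and fell 6.17-fold on the other. Dnajc4 fell 1.33-fold (log2 change -0.42 ± 0.13, SE, adjusted p = 0.0231), a call that was lost without wild-type motor neuron array 3 or without any single cord array, and that turned to 0.49 after centring and 0.077 after quantile normalization. Dnajc11, Dnajc28 and Dnajc30 did not pass, with log2 changes of -0.34, -0.42 and 0.14.

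Of the J proteins of vesicle traffic, Dnajc5, the cysteine string protein that guards SNARE proteins at synapses, had signals of 34154, 43643 and 37596 in SOD1-mutant motor neurons, 32224, 40722 and 35789.9 in wild-type motor neurons and 19396, 21353 and 18991 in cord on its brightest probe set. It rose 1.81-fold there (log2 change 0.86 ± 0.10, SE, adjusted p = 8.81e-05), but 3 of its other 4 probe sets fell, the steepest 16.4-fold. Dnajc6, the auxilin that strips clathrin from vesicles in neurons, read 32526, 28058 and 29877 in wild-type motor neurons and 26979.5, 30449.6 and 28154 in cord and did not pass (log2 change 0.079, adjusted p = 0.425), while it was -0.38 after quantile normalization (adjusted p = 0.00224) and 0.99 after centring (adjusted p = 1.15e-04). Its other 2 tested probe sets fell, by 38.8-fold and 3.04-fold. Dnajc13, an endosomal J protein, fell 1.34-fold (log2 change -0.42 ± 0.099, SE, adjusted p = 0.00519), which turned to 0.49 after centring.

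Of the 6 J proteins that act at ribosomes, on chromatin or on RNA, 4 rose. Each did so under all 3 scalings, as did 29.1% of all genes. Dnajc2, which with a ribosome-bound HSP70 meets nascent chains, had signals of 10466, 10814 and 11282 in SOD1-mutant motor neurons, 13699.8, 12644 and 13614 in wild-type motor neurons and 4721, 4176 and 4312 in cord. Both captured groups lay well above cord, and every mutant array below every wild-type one. Dnajc2 rose 3.02-fold in wild-type motor neurons (log2 change 1.59 ± 0.092, SE, adjusted p = 1.70e-06), and its other 2 tested probe sets rose 2.63-fold and 5.42-fold. Dnajc21 had signals of 17363, 11448 and 14494 in SOD1-mutant motor neurons, 13944, 11804 and 11886 in wild-type motor neurons and 4520.1, 5011 and 4949 in cord. Captured arrays of Dnajc21 again lay above cord. Dnajc21, which helps mature the large ribosomal subunit, rose 2.59-fold (log2 change 1.37 ± 0.10, SE, adjusted p = 6.63e-06), Dnajc8, a protein found with the splicing machinery, 2.52-fold (log2 change 1.33 ± 0.084, SE, adjusted p = 2.61e-06), and Dnajc9, a histone chaperone, 1.45-fold (log2 change 0.54 ± 0.10, SE, adjusted p = 0.00143). Dnajc24, of the diphthamide pathway that modifies an elongation factor, fell 1.97-fold (log2 change -0.98 ± 0.15, SE, adjusted p = 5.61e-04), a call not made after centring (log2 change -0.069) or quantile normalization (-0.39). Dnajc17 did not pass (-0.15).

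The remaining class C proteins held the deepest fall. Dnajc27 had signals of 3576, 2781 and 3446 in SOD1-mutant motor neurons, 4090.5, 2499 and 3093 in wild-type motor neurons and 13105, 13473 and 12901 in cord. Cord arrays were tightly placed above all 6 captured arrays. Dnajc27 fell 4.14-fold (log2 change -2.05 ± 0.16, SE, adjusted p = 1.03e-05), its second probe set fell 3.8-fold, and the fall passed under all 3 scalings. Dnajc12 had signals of 6643, 5800.1 and 6635 in SOD1-mutant motor neurons, 7888, 8668 and 7477 in wild-type motor neurons and 3659.6, 4282 and 4394 in cord, in 3 separate bands with cord lowest. Dnajc12, a co-chaperone of the aromatic amino acid hydroxylases, rose 1.95-fold (log2 change 0.96 ± 0.11, SE, adjusted p = 9.20e-05) and Dnajc7, which bridges HSP70 and HSP90 through tetratricopeptide repeats, rose 1.5-fold (log2 change 0.58 ± 0.091, SE, adjusted p = 4.95e-04).

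Of the 8 CCT subunits tested, 7 rose under all 3 scalings alike, and all 8 did after centring, beside 29.1% and 57.5% of all genes. Cct7 had signals of 60225, 58959 and 62717 in SOD1-mutant motor neurons, 66493, 78427 and 71504 in wild-type motor neurons and 22712, 23985 and 22673 in cord. Cord arrays agreed closely and lay below every captured array. Cct7 rose 3.11-fold (log2 change 1.64 ± 0.079, SE, adjusted p = 7.67e-07), Cct6a 2.74-fold (log2 change 1.46 ± 0.11, SE, adjusted p = 8.29e-06) and Cct3 2.71-fold (log2 change 1.44 ± 0.065, SE, adjusted p = 5.88e-07). Cct4 and Cct2 rose 2.13-fold and 1.99-fold, Cct5 1.97-fold and Tcp1, the alpha subunit, 1.74-fold, with adjusted p of 4.39e-06, 6.22e-05, 1.11e-05 and 1.64e-05. Tcp1 had signals of 48750.2, 49119 and 55198 in SOD1-mutant motor neurons, 57877, 54485 and 52883 in wild-type motor neurons and 31049.8, 33067 and 30964 in cord, and Cct5 of 52948, 48543 and 50114 in SOD1-mutant motor neurons, 58629, 50352 and 52466 in wild-type motor neurons and 26563, 28579 and 26828 in cord. In both subunits no cord array reached the lowest captured one. Cct8, the theta subunit, did not pass with the authors' scaling, with signals of 18736, 16633 and 15857 in SOD1-mutant motor neurons, 20835, 20936 and 18288 in wild-type motor neurons and 17457, 18433 and 17861 in cord. Its groups overlapped, and its log2 change was 0.16 (-0.03 to 0.35, 95% interval, adjusted p = 0.119), becoming -0.16 after quantile normalization (adjusted p = 0.0959) and 1.06 after centring, where it passed (adjusted p = 3.58e-05). Whether Cct8 differs from the other subunits was not tested. The brightest probe sets of Cct2 and Cct4 are of the kind marked as able to match other transcripts, but each gene also rose on a probe set without that mark, Cct2 by 1.55-fold and Cct4 by 1.39-fold.

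The mitochondrial chaperonin pair rose by different amounts. Hspd1 had signals of 96448, 78826 and 112451 in SOD1-mutant motor neurons, 103357, 104676 and 90414 in wild-type motor neurons and 34219.9, 35658 and 32761 in cord. All captured arrays stood far above every cord array. Hspd1 rose 2.9-fold (log2 change 1.54 ± 0.079, SE, adjusted p = 9.82e-07). Hspe1 had signals of 27182, 37004 and 31977 in SOD1-mutant motor neurons, 25437, 30112 and 33373 in wild-type motor neurons and 21194, 19080.2 and 22560.0 in cord on its brightest probe set, where captured arrays were also above all cord arrays but by less. Hspe1 rose 1.41-fold there (log2 change 0.50 ± 0.11, SE, adjusted p = 0.00427), was not called after quantile normalization (log2 change 0.11, adjusted p = 0.417), and fell 2.07-fold on its second probe set (adjusted p = 4.81e-04). Hspe1 has near-identical pseudogene copies in the genome, and their part in its signal was not tested.

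Chordc1, a zinc-binding protein that docks on HSP90, showed the largest rise of the 51. Its single probe set read 67825, 70181 and 70151 in SOD1-mutant motor neurons, 57676, 55215 and 54792 in wild-type motor neurons and 12441, 12221 and 12892 in cord. Arrays within a group differed little, and the groups did not overlap. Chordc1 rose 4.46-fold in wild-type motor neurons (log2 change 2.16 ± 0.068, SE, adjusted p = 2.00e-07). Hsp90aa1 had signals of 104209, 117949 and 113583 in SOD1-mutant motor neurons, 102790.0, 100140.0 and 104088 in wild-type motor neurons and 73212, 77636 and 69214 in cord on its brightest probe set, with both captured groups above cord. Hsp90aa1, the stress-inducible cytosolic HSP90, rose 1.4-fold (log2 change 0.48 ± 0.067, SE, adjusted p = 2.48e-04) on its brightest probe set and 2.27-fold and 1.26-fold on the next 2, with a turn to -0.043 for the brightest after quantile normalization. Stip1, the adaptor that passes clients from HSP70 to HSP90, had signals of 9586, 6499 and 7984 in SOD1-mutant motor neurons, 11551, 9319 and 11733 in wild-type motor neurons and 12399, 13195 and 13313 in cord. Wild-type motor neurons lay just under cord (log2 change -0.26, adjusted p = 0.055), a difference that passed with the opposite sign after centring (0.65, adjusted p = 0.00288) and with the same sign after quantile normalization (-0.45, adjusted p = 0.00378).

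**Figure D2:**
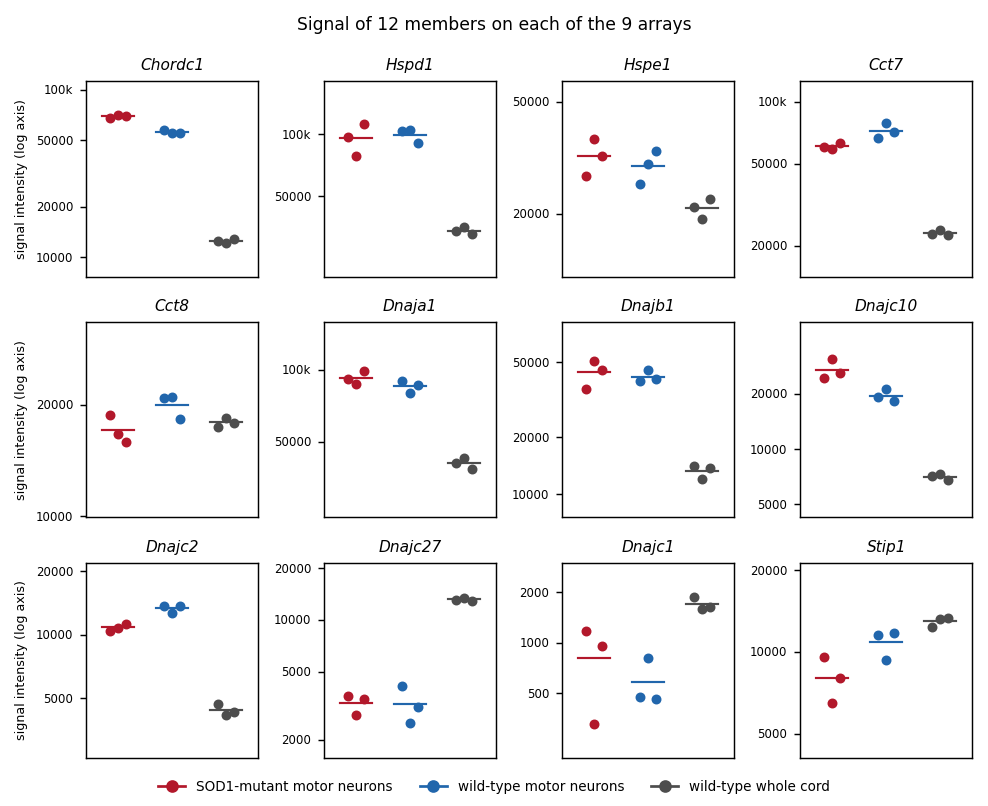
Signal intensity of 12 members on each array, on a log axis, with a line at each group mean. Chordc1, Hspd1, Cct7, Dnaja1, Dnajb1, Dnajc10 and Dnajc2 sit higher in both captured groups than in cord, Dnajc27 and Dnajc1 sit lower, and Cct8 overlaps.

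Heat shock factor binds repeats of GAA and its reverse, and 4 members carry 3 such units in a row near their start. All 4 were called higher on their brightest probe sets, but Hspe1 and Dnajb6 were not called after quantile normalization. The motif searched was GAANNTTCNNGAA on both strands, in RefSeq promoter windows of 250 bases before to 50 after a start (GRCm38.p6), which 47 of the 56 genes have. It occurred in 4 of the 47, namely Hspe1, Hspd1, Dnajb6 and Chordc1, against 0.662% of 27025 genes in the table. Hspd1 and Hspe1 lie head to head with starts 216 bases apart and share 1 element. The stretches are shown because they hold the matches, which differ in sequence and position, with the matched units in capitals, overlapping matches joined:
Hspe1 and Hspd1: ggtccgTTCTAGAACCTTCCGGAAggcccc
Dnajb6: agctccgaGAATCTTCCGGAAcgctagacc
Chordc1: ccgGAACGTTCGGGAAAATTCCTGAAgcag
They lie on the plus strand at chr1:55088053-55088082, chr5:29735844-29735873 and chr9:18292260-18292289. The run is 18 bases long for Hspe1, from 89 to 72 bases before its start, 13 bases for Dnajb6, and 23 bases for Chordc1, where it crosses the start. A shorter form of 2 units, GAANNTTC, occurred in 8 of the 47 genes and in 9.04% of all genes, adding Dnaja1, Dnaja4, Cct2 and Dnajc27. Dnajc27, the member that fell most, is thus among the matches to the shorter form. Many members called higher had no match to either form, Dnajb1 and Cct7 among them. A match of letters does not show binding, and the part of the motif in any change was not tested.

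Probe sets of 1 gene did not always move alike. Over the 116 tested probe sets of members, 52 were called higher and 38 lower, against 24.1% and 44.3% of all probe sets. Of 33 members with 2 or more tested probe sets, 8 had calls in both directions, which is 24.2% beside 22.1% of all such genes: Dnaja2, Dnaja3, Dnaja4, Dnajb4, Dnajb6, Dnajc5, Cct3 and Hspe1. In each of the 8 the brightest probe set was among those that rose. Brightness was averaged over both captured groups and cord, so the choice itself favours probe sets that are high in captured cells. The counts by brightest probe set, of members and of all genes alike, share this tilt. For Cct3 the brightest read 89144, 84294 and 82420.1 in wild-type motor neurons and 32194, 30897 and 31124 in cord and a dimmer one read 1639, 430.4 and 839.6 in wild-type motor neurons and 10161, 9712 and 9331 in cord, a rise of 2.71-fold beside a fall of 11.3-fold. The position of each probe set along its transcript was not used here, so the part of lost 5′ signal in these falls was not tested. With the mean of a gene's tested probe sets in place of the brightest, 24 members were higher and 17 lower, and with the dimmest one 17 and 19.

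**Figure D3:**
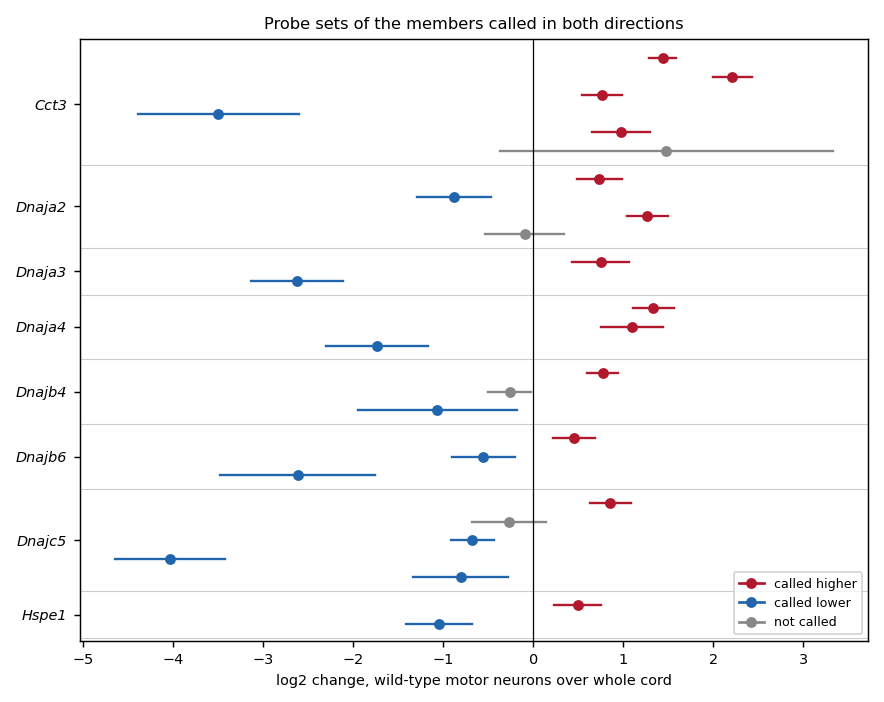
Log2 change in wild-type motor neurons over whole cord for every tested probe set of the 8 members with calls in both directions, ordered from bright to dim within a gene, with 95% intervals. The brightest probe set of each gene lies right of 0 and at least 1 dimmer one lies left of it.

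The partners of these proteins moved unevenly in the same comparison, on lists drawn up from textbook membership. Beside the counts of each list stand the shares of all genes, 31.5% higher and 38% lower. Among HSP70 proteins and their exchange factors, 13 of 19 rose (68.4%) and 3 fell (15.8%). Bag3, which links HSP70 to autophagy, rose 10.7-fold (log2 change 3.42 ± 0.10, SE, adjusted p = 1.70e-07), Hspa4, a nucleotide exchange factor, 3.21-fold and the inducible HSP70 gene Hspa1a 2.73-fold. Of 6 small heat shock proteins 4 rose and 1 fell, with Hspb8, the partner of Bag3, at 8.65-fold higher and Hspb1 at 4.49-fold higher, while Hspb2 was 4.17-fold lower. HSP90 co-chaperones beyond the members had 8 of 16 higher and 5 lower, led by the HSP90 ATPase activators Ahsa2 (5.46-fold) and Ahsa1 (2.58-fold) and the immunophilin Fkbp5 (3.35-fold). Prefoldin, which hands actin and tubulin to CCT, and other CCT cofactors had 6 of 9 higher and 1 lower. The CCT inhibitor Txndc9 rose 3.15-fold and Pfdn6 2.82-fold, while Pfdn5 fell 2.87-fold.

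Mitochondrial quality control genes had 6 of 12 higher (50%) and 2 lower (16.7%), beside 31.5% and 38% of all genes. Those higher included the matrix HSP70 Hspa9 (3.23-fold), its exchange factor Grpel1 (3.85-fold) and the protease Htra2 (3.23-fold). Chaperones of the endoplasmic reticulum had 5 of 13 higher (38.5%) and 6 lower (46.2%), beside 31.5% and 38% of all genes. Hspa5, the HSP70 of that compartment, rose 2.32-fold, while the disulfide isomerases Pdia3 and Pdia4 fell 10.1-fold and 3.11-fold. Of the heat shock factors, Hsf2 fell 4.78-fold, with 2 of 3 wild-type motor neuron arrays above background, Hsf4 did not pass (log2 change -0.29), and Hsf1 was not analysed here. On their dimmest probe sets Hspa4, Hspb8, Fkbp5, Txndc9, Hspa9 and Pdia3 turned the other way, Pdia3 only to 0.0045.

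SOD1-mutant motor neurons were then set against wild-type motor neurons, the comparison of genotype within captured cells. None of the 51 members was called in either direction (limma, adjusted p), beside 0.132% of all genes higher and 0.0697% lower. At an unadjusted p under 0.05, 5 members were higher and 3 lower, beside 8.3% and 8.66% of all genes. The 3 arrays of each group did not overlap for 7 members higher and 7 lower, beside 11.6% and 12.8% of all genes. These counts are close to the background. The median change was 0.067 over members and -0.0056 over all genes. Oligodendrocyte, astrocyte and microglia marker sums were higher, and motor neuron marker sums lower, on every SOD1-mutant array than on any wild-type motor neuron array, with the gap junction gene Gja1 called higher as 1 of the 8 astrocyte markers, and their part in the values below was not tested. Microglia markers summed to between 8562 and 9773 in SOD1-mutant motor neurons, and 6849.6 and 7045 in wild-type motor neurons. Such sums are led by their brightest genes, and single markers moved in both directions within each list. Their log2 changes ran from -0.28 to 0.31 for oligodendrocytes, -0.30 to 1.25 for astrocytes and -1.71 to 2.82 for microglia. For motor neuron markers they ran from -0.78 to 0.075.

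Of the 5 on the higher side Dnajc10 had the lowest unadjusted p, and all its mutant arrays exceeded all wild-type ones (log2 change 0.46, 95% interval 0.16 to 0.77, unadjusted p = 0.00631, adjusted p = 0.161). Dnajc10 passed in the fit of all 9 arrays together (adjusted p = 0.0443), which called 2.82% of all genes higher and 2.36% lower, while its dimmest probe set read a log2 change of -0.53 and the third 0.12. Dnajb9, a stress-induced J protein of the endoplasmic reticulum, had signals of 27097, 21300.2 and 18679 in SOD1-mutant motor neurons and 16484, 17561 and 16518 in wild-type motor neurons (log2 change 0.39, 95% interval 0.051 to 0.73, unadjusted p = 0.0281, adjusted p = 0.267). Chordc1 averaged 69386 ± 1352 in SOD1-mutant motor neurons and 55894 ± 1558 in wild-type motor neurons (SD, n = 3 each), with no overlap of arrays. Chordc1 had a log2 change of 0.31, 95% interval 0.074 to 0.55, unadjusted p = 0.0151, adjusted p = 0.215. Dnajc13 had signals of 4348, 4359 and 4054 in SOD1-mutant motor neurons and 3280.2, 3295 and 3331 in wild-type motor neurons (log2 change 0.36, 95% interval 0.015 to 0.71, unadjusted p = 0.0422, adjusted p = 0.308), and Dnajc6 of 36519, 38219 and 34395 in SOD1-mutant motor neurons and 32526, 28058 and 29877 in wild-type motor neurons (log2 change 0.27, 95% interval 0.0064 to 0.54, unadjusted p = 0.0456, adjusted p = 0.315). In Dnajb9, Dnajc13 and Dnajc6, as in Chordc1, each mutant array exceeded each wild-type array.

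On the lower side stood Stip1 (log2 change -0.45, 95% interval -0.84 to -0.056, unadjusted p = 0.0291, adjusted p = 0.27), for which 1 mutant array lay among the wild-type ones. Dnajc12 (log2 change -0.33, 95% interval -0.65 to -0.01, unadjusted p = 0.0443, adjusted p = 0.312) and Dnajc2 (log2 change -0.29, 95% interval -0.57 to -0.015, unadjusted p = 0.0409, adjusted p = 0.305) both had all mutant arrays below all wild-type arrays. The largest change in size was that of Dnajc25, a dim membrane J protein, which read 474, 1045 and 593 in SOD1-mutant motor neurons and 114, 386 and 544 in wild-type motor neurons and had the widest interval after Dnajb8 (log2 change 1.13, 95% interval -0.11 to 2.36, unadjusted p = 0.0689, adjusted p = 0.364). Wild-type array 1 of Dnajc25 lay below background.

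**Figure D4:**
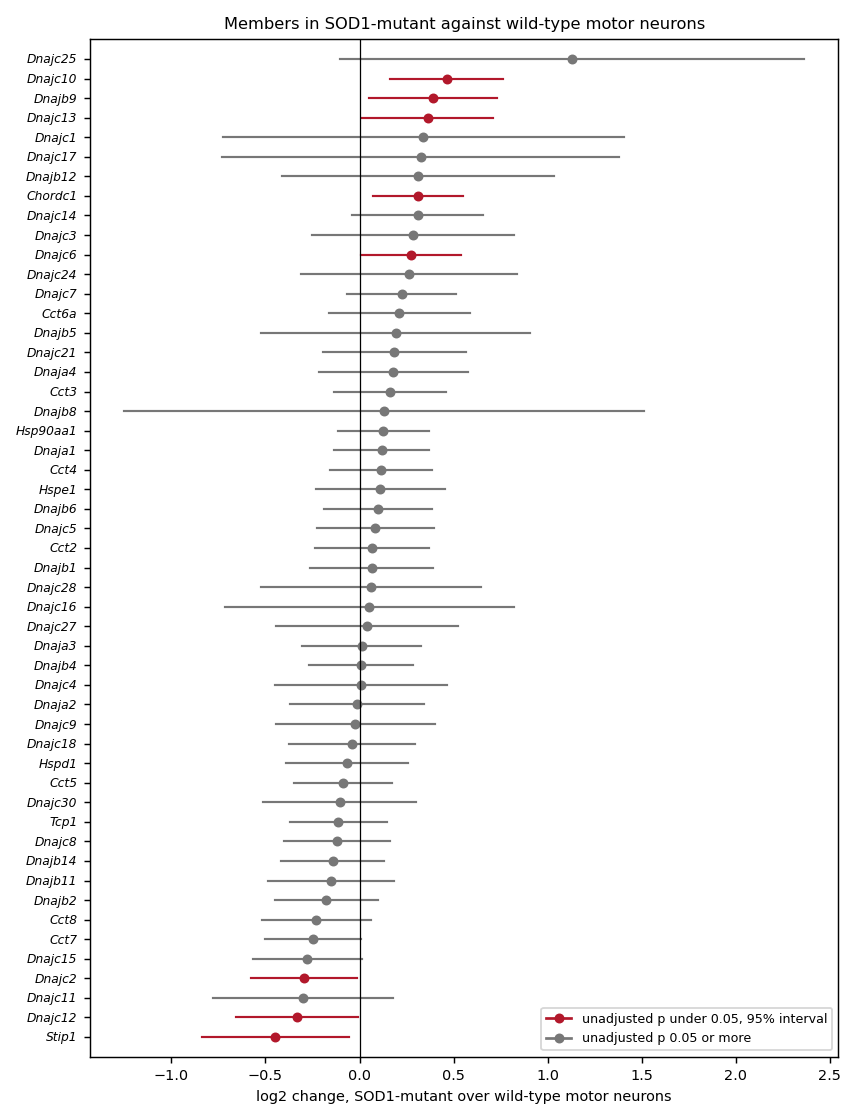
Log2 change of the 51 tested members in SOD1-mutant over wild-type motor neurons, with 95% intervals, from the largest at the top. Points in red had an unadjusted p under 0.05, and no member passed after adjustment over all genes.

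The intervals bound what these arrays could miss. For 46 of 51 members the 95% interval lay within a log2 change of 1 in either direction, and for 22 within 0.5. The CCT subunits ranged from -0.25 for Cct7 to 0.21 for Cct6a, and the interval of Tcp1 was -0.37 to 0.14. Hspd1 read -0.065 (-0.39 to 0.26), Hspe1 0.11 (-0.23 to 0.45), Dnajb1 0.064 (-0.26 to 0.39), Dnajb2 -0.18 (-0.45 to 0.098) and Hsp90aa1 0.13 (-0.12 to 0.37). Intervals for single genes were not widened for the number of genes.

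Among the related lists 1 gene of 77 tested was called in this comparison, beside 0.132% of all genes higher and 0.0697% lower. Hspa1b, an inducible HSP70, averaged 9347 ± 1553 in SOD1-mutant motor neurons and 3866 ± 334 in wild-type motor neurons (SD, n = 3 each). It was 2.39-fold higher in SOD1-mutant motor neurons (log2 change 1.26 ± 0.17, SE, adjusted p = 0.0384). The call was lost without any single array, with adjusted p of 0.0555 to 0.192, and after centring (adjusted p = 0.12). Its near-identical neighbour Hspa1a, whose signal cannot be kept apart with certainty, averaged 5309 ± 1065 in SOD1-mutant motor neurons and 3323 ± 988 in wild-type motor neurons (SD, n = 3 each), with a limma adjusted p of 0.212. Dnajb1, the main J-protein partner of inducible HSP70, had overlapping arrays in these groups.

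SOD1-mutant motor neurons against wild-type whole cord changes genotype and capture at once and uses the cord arrays a second time, so its counts are not further evidence. In it 31 members were higher and 10 lower, beside 28.8% and 37.1% of all genes, and 25 and 1 under all 3 scalings, beside 26.2% and 15.9%. By role, 7 of 8 CCT subunits, all 3 cytosolic class A J proteins and both subunits of the mitochondrial chaperonin were higher. So were 4 of 6 ribosome, chromatin and RNA J proteins, while the endoplasmic reticulum J proteins had 4 of 11 higher and 4 lower. Under all 3 scalings these counts were 6 CCT subunits, 2 class A J proteins, 4 ribosome, chromatin and RNA J proteins and 1 chaperonin subunit higher, and 4 endoplasmic reticulum J proteins higher with 0 lower. As scaled by the authors, Cct8 missed the threshold here too (log2 change -0.073).

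The other 5 members were too dim to test. Dnajb7 and Cct6b lay at or below background on every array, and Dnajc22 on every array but 1. Dnajb13, a component of motile cilia, read 57.4, 72.6 and 218 in SOD1-mutant motor neurons, 29.8, 61.4 and 219.9 in wild-type motor neurons and 337, 323 and 477 in cord. Dnajb3 read 245, 212 and 128 in SOD1-mutant motor neurons, 165, 378 and 11.4 in wild-type motor neurons and 156, 295 and 161 in cord.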

How the data were processed

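RNA of 9 samples was measured on Affymetrix Mouse Genome 430 2.0 arrays, 3 in each group. The deposited values are linear signal intensities that the authors scaled, as the values show, to a trimmed mean of 2500 on every array, with software not given in the sources used. The table held 45101 probe sets, 64 of them controls that were dropped. Genes were named from the platform annotation, which gave 34945 probe sets 1 gene, 932 several and 9160 none. Intensities were tested as log2(signal + 20.3), the added value being the 10th percentile, with limma 3.58.1 in R 4.3.3 (lmFit, eBayes with an intensity trend), each comparison on its own 6 arrays, two-sided, with Benjamini-Hochberg adjustment over the 27022 probe sets whose mean signal passed 247 (the 40th percentile). A fold is 2 to the size of the log2 change on that scale, and it understates changes of dim genes. Background on an array was the 95th percentile of 27 Bacillus subtilis control probe sets, and an "at least" fold sets the brighter mean against it. Each gene is represented by its brightest tested probe set. On simulated data for wild-type motor neurons against cord, with 200 of 27022 probe sets changed, 41% of changes of 1 and 72% of changes of 2 in log2 were recovered, and 14% and 49% between the captured groups. In the real cord comparison far more probe sets were called, 24.1% higher and 44.3% lower. The adjustment is less strict there, so the 41% and 72% do not give the share recovered in that comparison. The number of arrays limits the precision. The members, the related lists, the markers and the tests were chosen with earlier results of these data known. Named were the chaperonins, HSP90 group and main J proteins, up to 12 members with the largest change each way, members with probe sets called both ways, and up to 3 genes of each related list. Other members are named to account for all of them and were chosen after their values were seen. Equal replicate numbers did not pair the arrays. Alternatives changed the normalization, filter, added value, fit, probe set and arrays.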

Additional observations from a re-analysis of the deposited data

How the results depend on the processing

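Arrays from 3 samples a group, shared cord arrays, an unknown source of replicates and uneven 5′ signal limit these results, and signal near background, where Dnajc25 and Dnajb8 lie, gives wide intervals. All 13 alternatives and the omission of each array were run for each comparison, and the cause of each change below was not tested. For wild-type motor neurons against cord, between 17 and 41 members were higher and between 2 and 19 lower. Leaving out single arrays gave 30 higher and 8 to 11 lower there, 0 in either direction between the 2 captured groups, and 28 to 31 higher and 5 to 10 lower for SOD1-mutant motor neurons against cord, where the excess of the members' median over that of all genes was 0.74 to 0.86. Each cord array left out in turn gave 5 lower in that last comparison.

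Centring left 2 members lower in wild-type motor neurons and 1 in SOD1-mutant motor neurons against cord. In wild-type motor neurons it turned the log2 change of Dnajb5 to 0.014, Dnajc3 to 0.29, Dnajc4 to 0.49, Dnajc13 to 0.49, Dnajc18 to 0.14, Stip1 to 0.65, Dnajb11 to 0.71, Dnajc11 to 0.57 and Dnajc17 to 0.75. Quantile normalization turned Dnajc4 to 0.077, Dnajc6 to -0.38 and Hsp90aa1 to -0.043 there. It gave an excess of the members' median of 0.15, and 0.26 with 4 lower in SOD1-mutant motor neurons against cord. A filter at the 60th percentile gave excesses of 0.53 and 0.66 in the same 2 comparisons.

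The mean over probe sets gave 17 lower in each captured group against cord, with excesses of 0.53 in wild-type and 0.56 in SOD1-mutant motor neurons. It turned, in wild-type motor neurons, Dnaja3 to -0.94, Dnajb4 to -0.18, Dnajb6 to -0.90, Dnajc5 to -0.99, Dnajc6 to -2.27, Dnajc14 to -0.68, Hspe1 to -0.28 and Hspa4 to -0.097. The dimmest probe set gave 17 higher and 19 lower with an excess of 0.37 in wild-type motor neurons, 16 and 20 with 0.44 in SOD1-mutant motor neurons, and -0.046 between the captured groups. It turned, in wild-type motor neurons, Cct4 to -0.65, Dnaja2 to -0.093, Dnaja3 to -2.62, Dnaja4 to -1.73, Dnajb4 to -1.06, Dnajb6 to -2.62, Dnajc5 to -0.80, Dnajc6 to -1.61, Dnajc8 to -0.12, Dnajc14 to -0.50, Dnajc16 to -0.88, Hspe1 to -1.05, Hspa4 to -2.66, Hspb8 to -1.69, Fkbp5 to -0.40, Txndc9 to -1.45, Hspa9 to -3.47 and Pdia3 to 0.0045.

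Between SOD1-mutant and wild-type motor neurons, the fit of all 9 arrays called 1 member higher, beside 2.82% of all genes. Array weights called 16 higher and 6 lower, beside 24.8% and 27.3% of all genes, and turned Dnaja2 to 0.21 and Hspd1 to 0.26, but their estimate did not converge and rested on SOD1-mutant array 3 and wild-type array 3. With the replicate block, 30 members were higher and 9 lower in wild-type motor neurons against cord, 0 and 0 between captured groups, where all genes called numbered 114 and 102, against 17 and 9 without it, and 30 and 8 in SOD1-mutant motor neurons against cord. The correlation of same-numbered arrays was at most 0.161 and not every array correlated best with its own number. Between the captured groups, SOD1-mutant arrays 1 and 2 did so (0.135 and 0.161) and array 3 did not. With 3 arrays a group these correlations cannot settle whether arrays were paired. Measured against the middle probe set, the log2 ratio of the Gapdh control differed from cord by 1.92 in SOD1-mutant and 1.56 in wild-type motor neurons, and that of Actb by 2.45 and 2.08.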
